A study of Mus musculus with 12 samples.

Results

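Podocalyxin, the Par and Crumbs polarity proteins and the scaffolds of the apical membrane are described here through 9 mouse genes: *Podxl*, *Pard3*, *Pard6b*, *Pard6g*, *Prkci*, *Crb3*, *Ezr*, *Cgn* and *Tjp1*. They were chosen by name, for their known roles in building an apical surface, out of 35580 genes in the tables. Earlier results of these data were known when they were chosen. All 9 passed the filter on low counts. RNA was sequenced from R1 embryonic stem cells (ESCs), a mouse line, and from the 3D spheroids these cells form. WT cells were the parental line, and CIDEA KO cells were a single clone (19.7) in which the *Cidea* locus had been deleted with CRISPR-Cas9, so the deletion and any other difference of that clone cannot be told apart. ESCs at 0 h were grown with LIF and 10% serum, and spheroids at 24 h and 48 h without LIF and with 15% serum. For molecular experiments the paper describes spheroids grown on a Matrigel coat under medium that also held Matrigel. Each of the 6 groups had 2 libraries, which the labels only number and the paper describes as independent samples and biological replicates. How the cultures were separated is not stated, and p-values measure the spread between these libraries only.

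A lumen forms when neighbouring epithelial cells turn their apical faces towards each other and the membranes between them separate. PAR3, PAR6 and atypical protein kinase C mark the apical border, the Crumbs complex keeps the apical domain apart from the lateral one, and tight junctions seal the edge between both. Podocalyxin, a heavily charged sialomucin carried to the apical surface in vesicles and tied to actin by ezrin, pushes facing membranes apart. In the epiblast these steps accompany the passage from naive to primed pluripotency and produce the pro-amniotic cavity.

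Depth was 29.0 to 38.5 M estimated counts per library. *Cidea*, the deleted gene, had 89 and 67 counts in the WT libraries at 0 h, 117 and 46 at 24 h and 20 and 21 at 48 h, and 0 in each of the 6 CIDEA KO libraries. CIDEA KO 24 h replicate 1 stood apart, with 15603 genes detected against 17670 to 19861 in the others. The pluripotency genes *Pou5f1* (1049 TPM or more) and *Sox2* (245 TPM or more) were high in every library. Markers of primitive endoderm, trophectoderm and mesoderm stayed low, with summed levels of at most 11.98, 27.4 and 5.49 TPM. The fibroblast markers summed to 7.84 to 25.5 TPM, mostly *Thy1* (up to 23.3 TPM), while *Lum* did not exceed 0.0422 TPM, and the neural markers summed to 53.9 to 156 TPM, mostly *Tubb3* (47.0 to 148 TPM). TPM is scaled for transcript length and is used here to set genes side by side, whereas CPM (counts divided by library size after TMM scaling) is used to follow a gene across libraries and is the scale nearest to the test.

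*Ezr* was the most abundant member, and *Pard6g* had the lowest median. Over the 12 libraries the median level of *Ezr* was 179 TPM, followed by *Prkci* at 79.3, *Pard3* at 44.6, *Tjp1* at 41.6, *Podxl* at 25.1, *Crb3* at 15.9, *Pard6b* at 13.3, *Cgn* at 11.1 and *Pard6g* at 7.05 TPM. The lowest *Ezr* library (161 TPM) lay above the highest *Prkci* library (113 TPM), and the lowest *Prkci* library (59.3 TPM) lay above every library of the genes that follow. *Pard3* (37.2 to 48.2 TPM) and *Tjp1* (36.3 to 49.4 TPM) had overlapping ranges and cannot be ordered. *Crb3*, *Pard6b* and *Cgn* overlapped in the same way, and *Cgn* lay below *Pard6g* in both CIDEA KO libraries at 0 h.

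*Podxl* and *Cgn* rose at both steps of spheroid formation in both genotypes, and *Prkci* fell. From 0 h to 48 h, 5 of the 9 members were called in WT cells, where 23.6% of all 17424 genes tested were called (edgeR, adjusted p under 0.05). Over the same interval 3 of 9 were called in CIDEA KO cells, against 25.0% of all genes. *Podxl*, *Cgn* and *Prkci* were called in both genotypes, and *Pard6b* and *Tjp1* in WT cells. The median log2 change of the 9 members was 0.24 in WT and 0.08 in CIDEA KO cells, beside 0.02 and 0.01 for all genes tested. The WT and CIDEA KO time courses shared no libraries. Markers of the cell state moved over the same days. The sum of 6 epithelial markers went from 214 to 220 TPM at 0 h to 535 to 545 at 48 h in WT and from 230 to 235 to 599 to 624 TPM in CIDEA KO cells, and that of 6 naive markers from 1582 to 1588 to 361 to 379 TPM in WT cells. Their part in the changes of the members was not tested, and in these bulk samples fewer cells of a kind and less RNA per cell cannot be told apart.

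**Figure D1:**
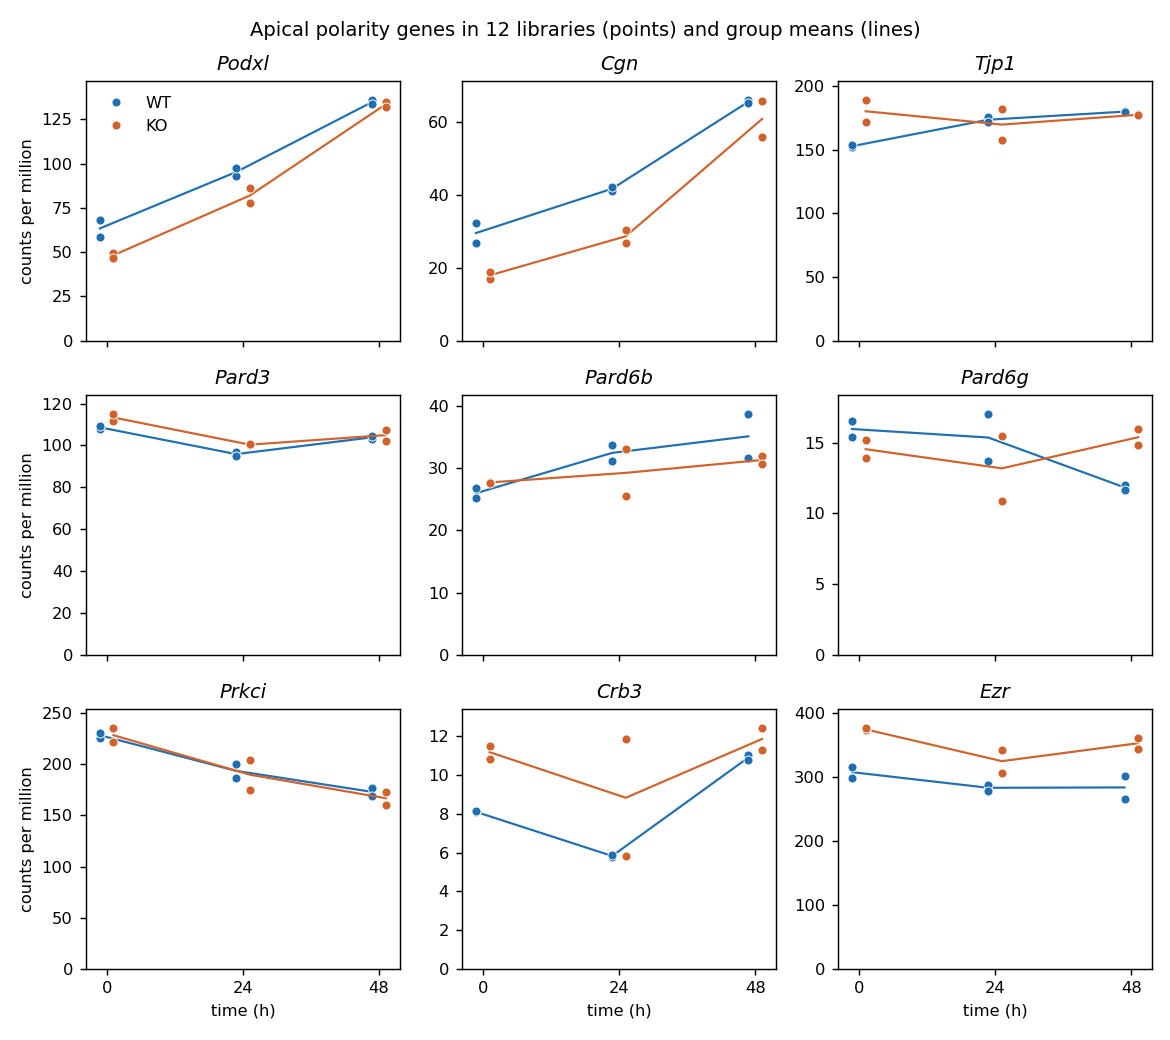
CPM (TMM scaled, axis from 0) of each member against time in hours, with a point for each of the 12 libraries and lines through the means of 2 libraries, for WT (blue) and CIDEA KO (orange). *Podxl* and *Cgn* climb at both steps, *Prkci* declines, and in *Crb3* the 2 CIDEA KO libraries at 24 h lie at 11.8 and 5.82 CPM.

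*Podxl* (chr6:31519488-31563981, minus strand, GRCm38, as are the positions that follow) encodes podocalyxin itself. In WT cells it measured 68.3 and 58.5 CPM at 0 h, 92.8 and 97.7 at 24 h, and 136 and 134 at 48 h. The KO libraries held 49.5 and 47.0 CPM at 0 h, 77.7 and 86.3 at 24 h, and 135 and 132 at 48 h. No library of a later time overlapped with those of an earlier time in either genotype, and the KO libraries lay below the WT libraries at 0 h and 24 h but overlapped with them at 48 h. With 2 libraries per group such separation says little, and the times of *Pard3*, called in no comparison, were separate too. How often it occurs among all genes was not counted. From 0 h to 48 h *Podxl* rose 2.13-fold in WT (log2 change 1.09, SE 0.10, adjusted p = 4.5e-08) and 2.77-fold in CIDEA KO cells (log2 change 1.47, SE 0.10, adjusted p = 6.0e-10).

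The rise of *Podxl* was spread over both days. In WT cells it rose by 0.59 (SE 0.10) on the log2 scale from 0 h to 24 h and by 0.50 (SE 0.09) from 24 h to 48 h. In CIDEA KO cells the steps were 0.76 (SE 0.10) and 0.71 (SE 0.09). All 4 steps were called, and each remained called when any single library was left out. On the TPM scale the WT steps were not called, with adjusted p = 0.20 for the first and 0.21 for the second in limma on log2(TPM + 1), and the range over the 9 alternatives that leave out no library was 3.8e-07 to 0.20 for the first step. The second CIDEA KO step also lost its call there (0.64, adjusted p = 0.056), whereas the first kept it (0.69, adjusted p = 0.029). *Podxl* has a short noncoding transcript, Podxl-202, whose mean TPM fell from 0 h to 24 h in both genotypes. From 24 h to 48 h its mean TPM did not fall in either genotype. Podxl-202 was given 37.5% of the *Podxl* TPM in WT 0 h replicate 2. Its median share over the libraries was 1.31%, and a short transcript weighs more in TPM than in counts. Its part in the TPM results was not tested.

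*Cgn* (chr3:94760069-94786492, minus strand) encodes cingulin, a cytoplasmic plaque protein that links tight junctions to actomyosin and restrains RhoA signalling. In WT cells it measured 32.3 and 26.9 CPM at 0 h, 41.2 and 42.4 at 24 h, and 66.1 and 65.3 at 48 h. Its KO libraries held 17 and 18.9 CPM at 0 h, 30.6 and 26.9 at 24 h, and 55.95 and 65.96 at 48 h. Again no later time overlapped with an earlier one. The rise from 0 h to 48 h was 2.22-fold in WT (log2 change 1.15, SE 0.13, adjusted p = 1.4e-06) and 3.39-fold in CIDEA KO cells (log2 change 1.76, SE 0.13, adjusted p = 4.6e-09).

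*Cgn* was called at both steps, and its paralog *Cgnl1*, which encodes paracingulin, at the first step only. At 0 h both stood near 10 TPM in WT cells, *Cgn* at 8.69 ± 1.0 (SD, n = 2) and *Cgnl1* at 10.7 ± 0.60. *Cgnl1* reached 26.8 ± 3.5 TPM at 24 h and 27.3 ± 0.57 at 48 h. *Cgn* reached 12.7 ± 0.57 TPM at 24 h and 19.8 ± 0.11 at 48 h. *Cgnl1* rose from 0 h to 24 h in both genotypes (log2 change 1.37 in WT and 1.495 in CIDEA KO cells) and was not called from 24 h to 48 h in either, whereas *Cgn* was called at each step. That the timing of the genes differs was not tested as such.

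**Figure D2:**
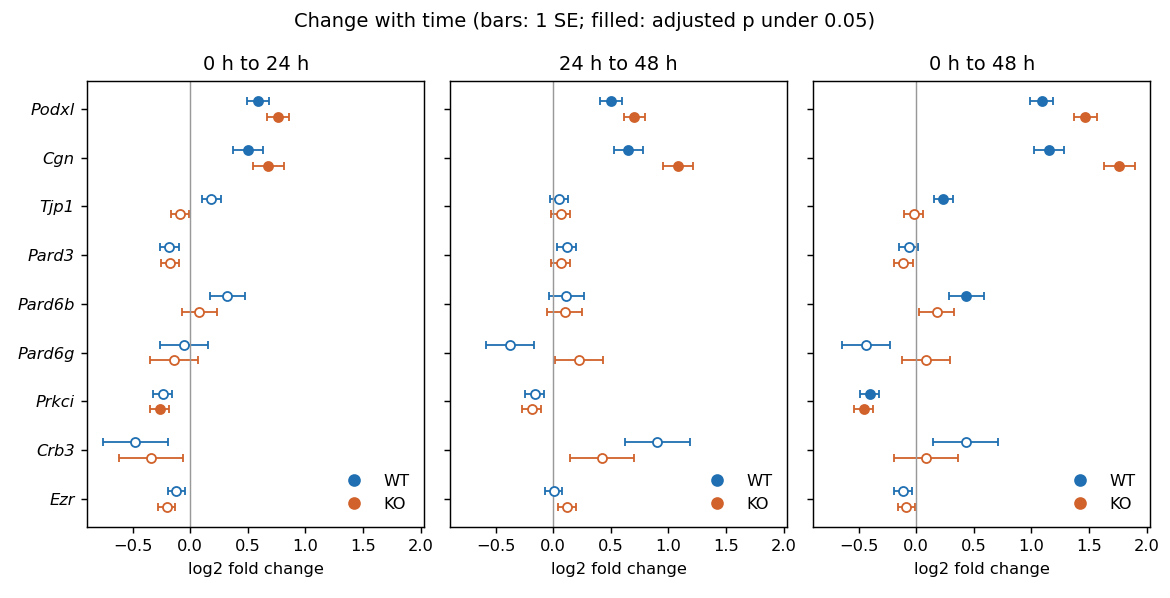
Log2 fold change of each member from 0 h to 24 h, from 24 h to 48 h and from 0 h to 48 h in WT (blue) and CIDEA KO (orange), from edgeR, with bars of 1 SE and filled points where the adjusted p was under 0.05. *Podxl* and *Cgn* are filled in all 3 panels for both genotypes, and the largest value is 1.76 for *Cgn* in CIDEA KO cells from 0 h to 48 h.

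The 250 bases before the *Cgn* start site are shown because *Cgn* was the member with both the largest change over time and the largest genotype difference. The stretch is from RefSeq on build GRCm38.p6, chr3:94786483-94786732, minus strand, read 5′ to 3′ in the direction of the gene. Capitals mark its match to AACCNGTT, the motif of Grainyhead-like factors, on the opposite strand, with 21 bases between the match and the start.
Cgn promoter: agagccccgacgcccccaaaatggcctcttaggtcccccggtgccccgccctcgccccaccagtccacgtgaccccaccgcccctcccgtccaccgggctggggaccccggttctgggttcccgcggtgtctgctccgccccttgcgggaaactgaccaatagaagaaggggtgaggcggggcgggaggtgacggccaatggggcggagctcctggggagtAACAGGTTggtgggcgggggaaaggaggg

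RefSeq promoters were found for 7 of the 9 members, which had 9 promoters between them, and *Podxl* and *Pard6g* had none in the table. Both strands of each listed sequence were searched for 6 motifs, without cutting it at the start site. Percentages count promoters, whereas a member is named if any of its promoters matched. AACCNGTT was present in 2.09% of all 32851 promoters and, among the members, in *Cgn* alone. CAGGTG, an E-box bound by Snail and ZEB repressors, was in 20.21% of promoters and in those of *Pard3*, *Pard6b* and *Crb3*. GCCNNNGGC, bound by AP-2 factors, was in 16.59% and in *Pard3*, *Pard6b* and *Tjp1*. GGAATG, bound by TEAD factors, was in 14.66% and in *Prkci* and *Crb3*. CACCC, bound by KLF factors, was in 57.52% and in all 7, and TGACGTCA, the cyclic AMP response element, was in 1.79% and in no member. The *Cgn* match to AACCNGTT overlapped none of the other 5 motifs. A match describes the letters only.

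*Prkci* (chr3:30995747-31052959, plus strand) encodes the iota isoform of atypical protein kinase C, the catalytic subunit that PAR6 brings to the apical border. *Prkci* measured 226 and 231 CPM at 0 h, 201 and 187 at 24 h, and 177 and 169 at 48 h in WT cells. With *Cidea* deleted it measured 222 and 235 CPM at 0 h, 175 and 205 at 24 h, and 173 and 160 at 48 h. The groups did not overlap from any time to the next, which was also true of *Pard3*. The step from 24 h to 48 h was not called in WT (-0.16, SE 0.08, adjusted p = 0.29) or in CIDEA KO cells (-0.19, SE 0.08, adjusted p = 0.18). *Prkci* fell by 0.40 (SE 0.08, adjusted p = 0.0012) on the log2 scale in WT and by 0.45 (SE 0.08, adjusted p = 0.00032) in CIDEA KO cells from 0 h to 48 h. The first step was called in CIDEA KO cells (log2 change -0.27, SE 0.08, adjusted p = 0.028) and lost without KO 0 h replicate 1, KO 0 h replicate 2 or KO 24 h replicate 1, with values of -0.31, -0.22 and -0.16. In WT cells that step had a log2 change of -0.24 (SE 0.08, adjusted p = 0.058).

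From 0 h to 24 h, 2 of the 9 members were called in WT cells (*Podxl* and *Cgn*), beside 15.0% of all genes, and 3 in CIDEA KO cells (with *Prkci*), beside 18.6%. From 24 h to 48 h, *Podxl* and *Cgn* were the 2 members called in either genotype, beside 8.14% of all genes in WT and 9.95% in CIDEA KO cells. The first WT step of *Cgn* (log2 change 0.50, SE 0.13, adjusted p = 0.012) was lost without WT 0 h replicate 2, WT 24 h replicate 1 or WT 24 h replicate 2, with values of 0.38, 0.53 and 0.48. It also lost its call in limma on TPM, where the value was 0.50.

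*Pard6b* (chr2:168081004-168101203, plus strand) and *Pard6g* encode PAR6 adaptors, which hold atypical protein kinase C and bind CDC42. *Pard6b* in WT cells measured 26.8 and 25.1 CPM at 0 h, 33.8 and 31.1 at 24 h, and 31.6 and 38.7 at 48 h. The KO values were 27.8 and 27.6 CPM at 0 h, 25.5 and 33.03 at 24 h, and 32 and 30.6 at 48 h. In WT cells *Pard6b* rose 1.35-fold from 0 h to 48 h (log2 change 0.44, SE 0.15, adjusted p = 0.041). Without WT 0 h replicate 1, WT 0 h replicate 2 or WT 48 h replicate 2 the call was lost, with log2 changes of 0.48, 0.40 and 0.29. The change in CIDEA KO cells was 0.18 (SE 0.15, adjusted p = 0.48).

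*Pard6g* was called in no comparison. Its libraries lay between 10.9 and 17.02 CPM. The value from 0 h to 48 h was -0.43 (SE 0.21, adjusted p = 0.16) in WT and 0.08 (SE 0.21, adjusted p = 0.86) in CIDEA KO cells. The third paralog, *Pard6a*, was present at a median of 15.9 TPM, so transcripts of all 3 PAR6 genes were found in these cells.

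*Pard3* (chr8:127063893-127612286, plus strand) encodes PAR3, the scaffold that places the Par complex at the junction. It was steady, with a range of 94.9 to 115 CPM over the 12 libraries, and was called in no comparison. Even so, its groups did not overlap from any time to the next in either genotype. Its values from 0 h to 48 h were -0.06 (SE 0.08) in WT and -0.11 (SE 0.08) in CIDEA KO cells. The small drop at 24 h had the same size in both genotypes, -0.18 (SE 0.08) in each, with unadjusted p = 0.038 in WT and 0.043 in CIDEA KO cells in edgeR, and did not pass the adjustment.

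*Tjp1* (chr7:65296165-65527781, minus strand) encodes ZO-1, the PDZ scaffold of the tight junction to which cingulin binds. *Tjp1* in WT cells measured 152 and 154 CPM at 0 h, 176 and 172 at 24 h, and 181 and 179 at 48 h. The CIDEA KO libraries measured 172 and 189 CPM at 0 h, 158 and 182 at 24 h, and 178 and 177 at 48 h. The WT libraries at 0 h were the lowest of the 12, and the other WT and KO libraries shared a range. *Tjp1* rose 1.18-fold in WT cells from 0 h to 48 h (log2 change 0.24, SE 0.08, adjusted p = 0.038), a call that was lost when any of the 4 WT libraries concerned was left out (0.23 to 0.25). The change was 0.08 when offsets for transcript length were used and -0.02 (SE 0.08, adjusted p = 0.91) in CIDEA KO cells.

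*Crb3* (chr17:57059105-57065918, plus strand) encodes the Crumbs protein of mammalian epithelia, a short transmembrane protein that recruits PALS1 and PATJ. *Crb3* in WT cells measured 8.08 and 8.12 CPM at 0 h, 5.77 and 5.88 at 24 h, and 11.1 and 10.8 at 48 h. Its CIDEA KO libraries measured 10.8 and 11.5 CPM at 0 h, 11.8 and 5.82 at 24 h, and 11.3 and 12.4 at 48 h. The WT libraries were lowest at 24 h, and of the KO libraries at that time replicate 2 lay with WT while replicate 1, the library with the fewest genes detected, lay with the KO libraries of the other times. The WT change from 24 h to 48 h was 0.90 (SE 0.28, adjusted p = 0.056) on the log2 scale. *Crb3* rested on 194 to 426 counts per library.

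Leaving out CIDEA KO 24 h replicate 1 changed the reading of *Crb3* in CIDEA KO cells. Without it *Crb3* fell from 0 h to 24 h (-0.95, adjusted p = 0.026) and rose from 24 h to 48 h (1.02, adjusted p = 0.023), where with it the values were -0.34 (adjusted p = 0.47) and 0.43 (adjusted p = 0.41). Over the 4 ways of leaving out a library, adjusted p ran from 0.026 to 0.84 for the first step and from 0.023 to 1.0 for the second. Without replicate 2 at 24 h, *Crb3* was called higher in CIDEA KO than in WT spheroids at that time (1.02, adjusted p = 0.0092), and with both the difference was 0.60 (SE 0.28, adjusted p = 0.39).

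*Ezr* (chr17:6738041-6782784, minus strand) encodes ezrin, the ERM protein that joins podocalyxin and its NHERF partners to actin. Its WT libraries measured 316 and 299 CPM at 0 h, 288 and 278 at 24 h, and 265 and 302 at 48 h. Its CIDEA KO libraries measured 373 and 376 CPM at 0 h, 343 and 307 at 24 h, and 344 and 362 at 48 h. At each time both KO libraries lay above both WT libraries. *Ezr* was not called for any change with time, with values from 0 h to 48 h of -0.12 (SE 0.08) in WT and -0.09 (SE 0.08) in CIDEA KO cells.

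The difference between the genotypes is the comparison that asks whether loss of CIDEA, which enlarges lipid droplets by fusion, moves with the transcripts of lumen formation. *Cgn* was lower in CIDEA KO cells before and during early spheroid formation. At 0 h it was at 0.607 times its WT level (log2 difference -0.72, SE 0.13, adjusted p = 0.0061), and it was the only one of the 9 members called, beside 1.26% of all genes. At 24 h it was at 0.687 times the WT level (-0.54, SE 0.13, adjusted p = 0.038), again the only member called, beside 1.46% of all genes. At 48 h the difference was -0.11 (SE 0.13, adjusted p = 1.0).

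At 48 h no member was called by edgeR, beside 0.671% of all genes. The unadjusted p was under 0.05 for 1 member, *Ezr* (0.31, SE 0.08, adjusted p = 0.069), beside 1349 of all 17424 genes, and DESeq2 called that 1 member. *Podxl* at 0 h was at 0.761 times its WT level (-0.39, SE 0.10, adjusted p = 0.0502), next to the threshold. It was called in DESeq2 (adjusted p = 0.0081) and 3 other of the 9 alternatives, whose adjusted p ran from 0.0081 to 0.33. The difference of *Podxl* was -0.22 (SE 0.09, adjusted p = 0.35) in spheroids of 24 h and was -0.01 (SE 0.09, adjusted p = 1.0) in those of 48 h.

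**Figure D3:**
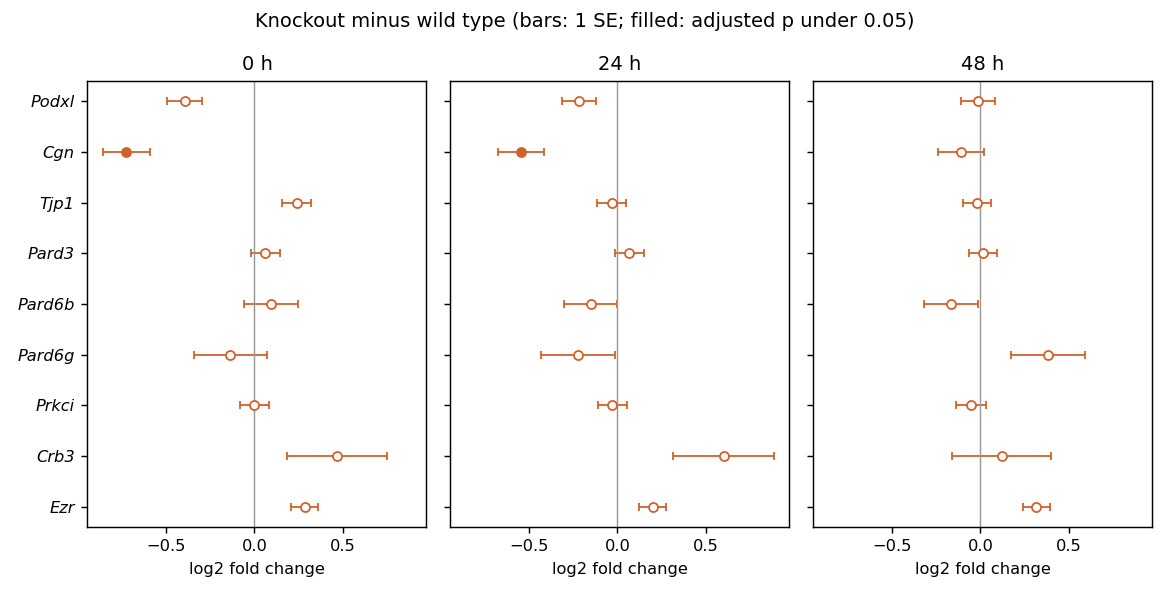
Log2 difference of CIDEA KO minus WT for each member at 0 h, 24 h and 48 h, from edgeR, with bars of 1 SE and filled points where the adjusted p was under 0.05. *Cgn* is the filled point at 0 h (-0.72) and 24 h (-0.54), no point is filled at 48 h, and *Ezr* lies to the right of 0 in every panel.

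The *Cgn* difference at 0 h depended on single libraries and on the unit. Without WT 0 h replicate 1 it was -0.57 (adjusted p = 0.13) and without KO 0 h replicate 1 it was -0.63 (adjusted p = 0.15), and over the 4 ways of leaving out a library adjusted p ran from 0.0083 to 0.15. At 24 h it was -0.56 without WT 24 h replicate 1 (adjusted p = 0.25) and -0.51 without WT 24 h replicate 2 (adjusted p = 0.20), in a range of 0.027 to 0.25. Offsets for average transcript length gave -0.61 (adjusted p = 0.19) at 0 h and -0.48 (adjusted p = 0.30) at 24 h. At 0 h and 24 h the sign was negative in all 9 other alternatives and in each of the 4 fits without a library. At 48 h it turned to 0.00081 without KO 48 h replicate 1.

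Averaged over the 3 times, 3 of the 9 members were called between the genotypes, beside 5.03% of all genes. *Cgn* was at 0.728 times the WT level (-0.46, SE 0.08, adjusted p = 0.00079) and *Ezr* at 1.202 times (0.27, SE 0.04, adjusted p = 0.00082). Both calls remained in each of the 12 fits without a single library. *Podxl* was at 0.866 times the WT level (-0.21, SE 0.05, adjusted p = 0.031), but the call was lost in 10 of those 12 fits, with log2 differences of -0.24 to -0.17 and adjusted p of 0.0049 to 0.13. None of the 3 calls was made in limma on TPM. The median difference of the 9 members was 0.0076, beside -0.0026 for all genes.

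Other values moved with the genotype at 0 h. The WT ESC libraries had 17747 and 17670 genes detected, and the KO libraries 19059 and 18638. The 6 naive markers (*Esrrb*, *Klf4*, *Tfcp2l1*, *Zfp42*, *Nanog* and *Tbx3*) summed to 1582 to 1588 TPM in WT and 1913 to 1983 TPM in CIDEA KO ESCs. *Tfcp2l1* overlapped between the genotypes, and the other naive markers were higher in both CIDEA KO libraries. The 6 formative and primed markers (*Otx2*, *Fgf5*, *Pou3f1*, *Dnmt3b*, *Sox3* and *Lef1*) summed to 89.7 to 90.6 TPM in WT and 61.2 to 67.2 TPM in CIDEA KO ESCs, and none of them was at 0 in all libraries of a group. Most of that difference was *Otx2*, at 43.0 and 47.2 TPM in WT and 24.2 and 22.0 TPM in CIDEA KO ESCs. *Lef1* was also lower in CIDEA KO ESCs, *Pou3f1* was higher, and *Fgf5*, *Dnmt3b* and *Sox3* overlapped between the genotypes in TPM. In CPM *Dnmt3b* was lower in CIDEA KO ESCs (92.5 and 88.5) than in WT ESCs (114 and 102). At 48 h the sums of the formative and primed markers overlapped, at 724 to 727 TPM in WT and 695 to 728 TPM in CIDEA KO spheroids. The part of these shifts in the *Cgn* and *Podxl* differences was not tested.

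No member's time course was called different between the genotypes. The interaction terms, which compare the genotype difference at 24 h or 48 h with that at 0 h, were called in edgeR for 0 of 9 members at 24 h and 0 of 9 at 48 h, beside 0.0115% and 0.0402% of all genes, and DESeq2 also called 0. The unadjusted p was under 0.05 for 1 member at 24 h (*Tjp1*) and for 3 at 48 h (*Podxl*, *Cgn* and *Tjp1*), beside 1029 and 1003 of all 17424 genes. At 48 h the term was 0.61 (SE 0.18, adjusted p = 0.45) for *Cgn* and 0.38 (SE 0.13, adjusted p = 0.64) for *Podxl*. For *Tjp1* it was -0.27 (SE 0.11, adjusted p = 0.84) at 24 h and -0.26 (SE 0.11, adjusted p = 0.80) at 48 h.

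Most members differed from their paralogs in level, but *Pard6b* (10.8 to 16.6 TPM) overlapped with *Pard6a* (10.3 to 22.0 TPM) and *Cgn* (5.51 to 19.8 TPM) with *Cgnl1* (7.64 to 30.2 TPM). *Prkci* (59.3 to 113 TPM) exceeded *Prkcz*, the zeta isoform of atypical protein kinase C (8.91 to 17.3 TPM), in every library. *Crb3* (8.89 to 20.8 TPM) exceeded *Crb1* (at most 1.05 TPM) and *Crb2* (at most 1.07 TPM), and *Pard3* exceeded *Pard3b* (at most 1.16 TPM). *Podxl* (13.5 to 39.9 TPM) exceeded *Podxl2*, endoglycan (0 to 4.38 TPM), and *Cd34* (4.75 to 12.4 TPM). *Ezr* was followed by *Rdx*, radixin (65.7 to 96.9 TPM), and *Msn*, moesin (38.0 to 56.5 TPM). *Tjp1* lay above *Tjp3*, which encodes ZO-3 (3.20 to 8.93 TPM).

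**Figure D4:**
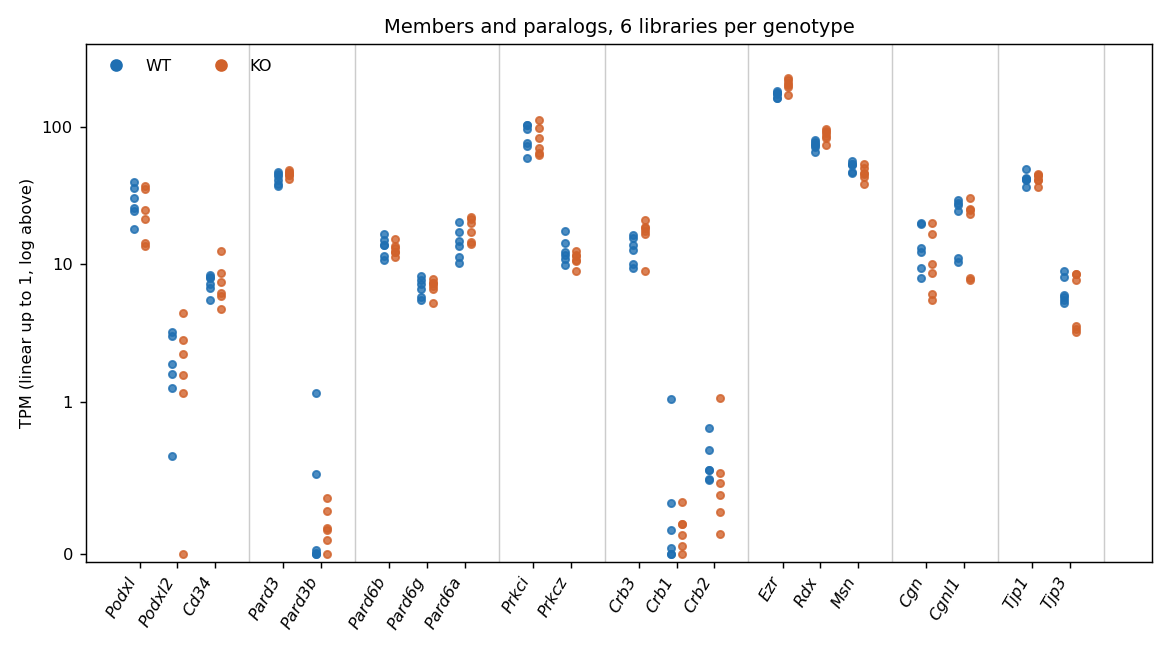
TPM of the members and the paralogs named here, grouped by family, with a point for each of the 6 WT (blue) and 6 CIDEA KO (orange) libraries, on an axis that is linear up to 1 TPM and logarithmic above. *Ezr* is highest, at 161 to 226 TPM, and *Crb1*, *Crb2* and *Pard3b* lie at or under 1.16 TPM.

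Transcripts were estimated separately, and the tight junction and Crumbs genes showed alternative coding sequences. Tjp1-201 held 50.5% to 70.0% of the *Tjp1* TPM and Tjp1-202 held 18.3% to 33.4%. Tjp1-202 has a coding exon of 240 bases that Tjp1-201 lacks, at chr7:65314093-65314332 on the minus strand (GRCm38, GENCODE M21), known as the exon of the alpha domain of ZO-1, whose inclusion differs between epithelial and other cells. It is shown because it separates the main *Tjp1* transcripts, with the exon in capitals and 30 coding bases on either side.
Tjp1-202: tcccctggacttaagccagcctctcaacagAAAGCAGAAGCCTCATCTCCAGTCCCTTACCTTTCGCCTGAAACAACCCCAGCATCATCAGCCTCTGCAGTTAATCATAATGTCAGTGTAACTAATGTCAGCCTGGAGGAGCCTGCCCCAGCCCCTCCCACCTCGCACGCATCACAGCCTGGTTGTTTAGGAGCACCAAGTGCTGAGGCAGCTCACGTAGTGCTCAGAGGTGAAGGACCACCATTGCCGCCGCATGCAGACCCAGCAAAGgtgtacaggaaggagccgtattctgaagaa

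Tjp1-202 held 21.6% and 22.4% in the WT libraries of 0 h, 18.3% and 28.0% in those of 24 h, and 26.6% and 22.3% in those of 48 h. The KO libraries held 26.9% and 23.8% at 0 h, 27.2% and 29.8% at 24 h, and 23.4% and 33.4% at 48 h. The libraries of all times overlapped in WT cells. Coding length was 5238 bases in Tjp1-202 and 5058 in Tjp1-201, so the exon is not the only difference between them.

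The coding sequence of *Crb3* ends in alternative ways, which matters because the last residues of Crumbs proteins bind the PDZ domains of PALS1 and PAR6. Crb3-201, Crb3-202 and Crb3-204 share a coding sequence of 342 bases, and Crb3-205 has 354. The ends are given from 30 bases before the point where they part, with capitals from the first base of the separate part to the stop codon, at chr17:57065234-57065296 for Crb3-202 and chr17:57065609-57065683 for Crb3-205, both on the plus strand of GRCm38 (GENCODE M21).
Crb3-202: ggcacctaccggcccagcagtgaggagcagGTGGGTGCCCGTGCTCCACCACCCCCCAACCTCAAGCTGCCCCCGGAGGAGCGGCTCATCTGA
Crb3-205: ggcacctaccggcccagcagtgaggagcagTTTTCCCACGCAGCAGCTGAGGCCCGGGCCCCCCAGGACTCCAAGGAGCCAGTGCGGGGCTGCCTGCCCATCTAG

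The Crb3-205 ending made up 1.58% to 41.3% of the TPM of these 4 transcripts, with a median of 11.95%. WT libraries had 18.1% and 1.58% at 0 h, 41.3% and 12.8% at 24 h, and 11.1% and 7.98% at 48 h. CIDEA KO libraries had 5.52% and 10.1% at 0 h, 24.8% and 10.3% at 24 h, and 35.0% and 37.8% at 48 h. The 2 CIDEA KO libraries at 48 h were higher than the other libraries except WT 24 h replicate 1, and replicates were as far apart as 41.3% and 12.8% (WT 24 h) and as close as 11.1% and 7.98% (WT 48 h), with 2 to 103 estimated counts for this ending per library.

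**Figure D5:**
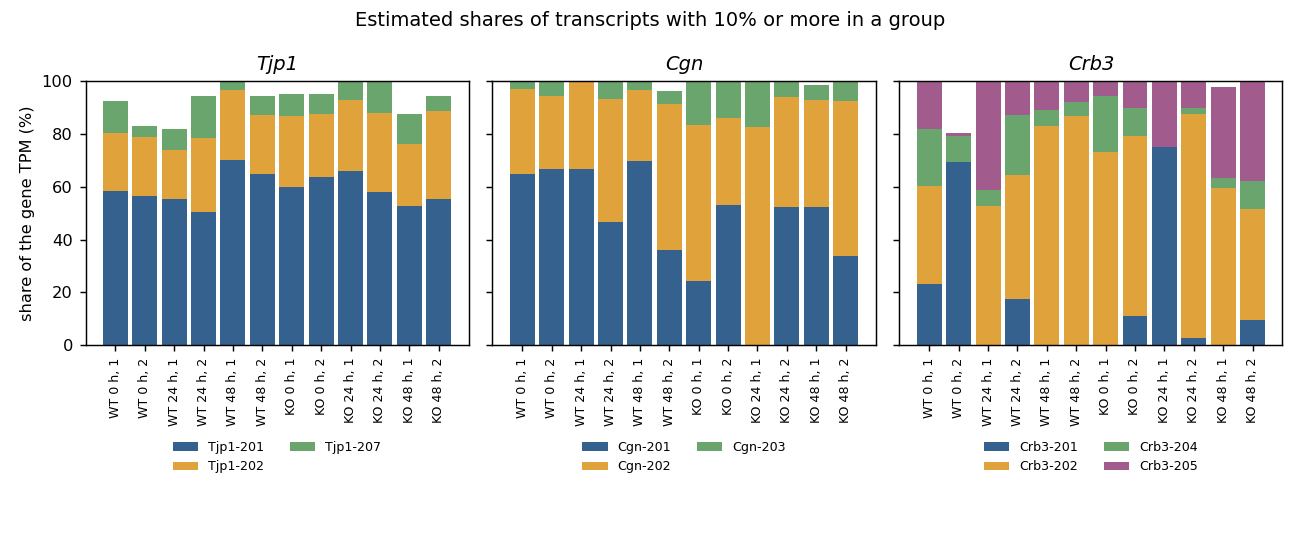
Share in percent of the TPM of *Tjp1*, *Cgn* and *Crb3* estimated for each transcript with 10% or more in a group mean, as stacked bars for each of the 12 libraries (genotype, time and replicate), where the gap to 100% is the remaining transcripts. Tjp1-201 has the largest *Tjp1* share in every library (50.5% to 70.0%), and shares of all 3 genes change between replicates, Crb3-202 being near 0% in WT 0 h replicate 2 and CIDEA KO 24 h replicate 1.

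No member transcript was called for a changed share from 0 h to 48 h by the edgeR test of transcript usage, beside 0.0488% of all 53320 transcripts in WT and 0.0% in CIDEA KO cells. Among the 39 member transcripts tested, the unadjusted p was under 0.05 for 2 in WT (Crb3-201 and Pard3-213) and for 2 in CIDEA KO cells (Pard3-212 and Pard3-224), and no other tool was run. Cgn-201 held 64.8% and 66.8% of the *Cgn* TPM in WT ESCs and 24.2% and 52.9% in CIDEA KO ESCs, where the genotype difference in share was not tested. Its share was listed at 0% in CIDEA KO 24 h replicate 1, the library that stood apart. Similar transcripts share most reads, and the tables do not carry the uncertainty of dividing them.

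The wider polarity machinery was followed through 57 further genes in 7 lists, of which 56 were tested. From 0 h to 48 h in WT cells 9 of the 56 rose and 10 fell, beside 11.1% of all genes that rose and 12.5% that fell. The CIDEA KO course had 13 that rose and 10 that fell, beside 12.1% and 12.8%. The median log2 change over the 56 was 0.03 in WT and 0.07 in CIDEA KO cells, beside 0.02 and 0.01 for all genes. The lists counted below include their members and are small, so their counts are to be read against those shares, 11.1% higher and 12.5% lower in WT and 12.1% and 12.8% in CIDEA KO cells. Log2 changes and calls of the wider genes come from the main edgeR fit on counts alone. How they depend on the unit or on single libraries is not reported here.

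In the Par list of 10 genes, 1 rose and 2 fell in WT and 0 rose and 2 fell in CIDEA KO cells. *Tiam1*, an exchange factor that activates RAC1 with PAR3, fell by 1.11 (SE 0.11) on the log2 scale in WT and by 1.15 (SE 0.11) in CIDEA KO cells. In the Crumbs list, 3 of 8 tested genes rose in each genotype and none fell. *Mpdz*, which encodes the multi-PDZ scaffold MUPP1, rose by 1.03 (SE 0.21) in WT and 1.01 (SE 0.21) in CIDEA KO cells. In TPM the WT rise of *Mpdz* was smaller, from 8.60 ± 1.6 to 10.4 ± 1.8 (SD, n = 2). Its CIDEA KO means were 4.82 ± 1.6 and 11.1 ± 5.7 TPM. *Patj*, its relative in the Crumbs complex, rose by 0.95 (SE 0.26) and 0.90 (SE 0.26). *Crb1* was also among the WT calls, with 0 counts in both WT 0 h libraries and a level of 0.692 ± 0.51 TPM (SD, n = 2) at 48 h.

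In the podocalyxin and ERM list of 9 genes, 2 rose and 1 fell in WT, and 3 rose and 1 fell in CIDEA KO cells. *Slc9a3r1*, which encodes the podocalyxin adaptor NHERF1, had its highest mean at 24 h. Its WT means were 90.2 ± 6.6 TPM in ESCs, 153 ± 6.2 after 24 h and 115 ± 8.9 after 48 h (SD, n = 2), and its CIDEA KO means were 89.0 ± 8.3, 137 ± 7.7 and 110 ± 12 TPM. Over both days it rose by 0.32 (SE 0.10) and 0.36 (SE 0.10). *Muc1*, an apical mucin, fell by 2.15 (SE 0.61) in WT and 1.73 (SE 0.60) in CIDEA KO cells from a level of 4.11 ± 2.2 TPM in WT ESCs.

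Of the junction scaffolds, *Cgnl1* rose by 1.45 (SE 0.09) in WT and 1.67 (SE 0.09) in CIDEA KO cells, and *Tjp3* fell by 0.93 (SE 0.24) and 0.99 (SE 0.24). Of the 8 junction anchors, 3 rose and 2 fell in each genotype. *Cdh1*, which encodes E-cadherin, rose by 1.10 (SE 0.06) and 1.31 (SE 0.06), and *Nectin3* by 0.96 (SE 0.14) and 0.74 (SE 0.13). *F11r*, which encodes the PAR3-binding adhesion molecule JAM-A, rose by 0.85 (SE 0.10) and 1.31 (SE 0.10), while its paralog *Jam2* fell by 2.13 (SE 0.09) and 2.21 (SE 0.09).

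Of the 11 basolateral genes, 1 rose and 2 fell in WT and 3 rose and 2 fell in CIDEA KO cells. *Dlg4* rose by 0.71 (SE 0.18) and 0.68 (SE 0.18), whereas *Dlg5* fell by 0.52 (SE 0.09) and 0.45 (SE 0.09) and *Llgl2*, a Lethal giant larvae homolog that opposes atypical protein kinase C, by 0.45 (SE 0.10) and 0.39 (SE 0.10). Of the 14 genes that carry podocalyxin vesicles, none rose and 3 fell in each genotype. They were *Rab11fip5*, a RAB11 effector (-2.08, SE 0.23, in WT and -1.69, SE 0.24, in CIDEA KO cells), *Anxa2*, annexin A2 (-1.55, SE 0.22, and -1.51, SE 0.22), and *Rab8a* (-0.28, SE 0.09, and -0.27, SE 0.09). In TPM *Rab8a* did not fall in WT cells, with 90.4 ± 22 at 0 h and 97.7 ± 8.0 at 48 h (SD, n = 2). Its CIDEA KO means were 107 ± 2.0 and 87.2 ± 18 TPM. *Podxl* itself rose over the same interval.

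Between the genotypes, 0 of the 56 wider genes were called by edgeR at 0 h, 1 at 24 h and 2 at 48 h, beside 1.26%, 1.46% and 0.671% of all genes. At 0 h 10 of the 56 had an unadjusted p under 0.05, beside 1745 of all 17424 genes. *Jam2* was higher in CIDEA KO spheroids at 24 h (0.59, SE 0.09, adjusted p = 0.00094). *F11r* (0.46, SE 0.10, adjusted p = 0.036) and *Cdh1* (0.25, SE 0.06, adjusted p = 0.0496) were higher at 48 h. *Cdh1* lay next to the threshold, and whether these calls hold without a single library or with length offsets is not reported here. Averaged over the times, 8 of the 56 were called, beside 5.03% of all genes: *Jam2*, *Rac1*, *Cdc42*, *Rdx* and *Cdh1* were higher in CIDEA KO cells (0.14 to 0.35) and *Msn*, *Cgnl1* and *Rab11fip5* were lower (-0.59 to -0.18). The ERM genes thus went in both directions in the same fit, with *Ezr* at 0.27 (SE 0.04), *Rdx* at 0.18 (SE 0.05) and *Msn* at -0.18 (SE 0.05).

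Over the 12 libraries *Podxl* and *Cgn* had a Pearson correlation of 0.962 on log2 CPM, and *Podxl* and *Prkci* one of -0.893. The libraries share their time points, along which all 3 genes changed, and the values are a description. Among 10905 genes whose mean log2 CPM was 2 or more, those most like *Podxl* were *Kif21a* (r = 0.988), *Esrp1* (0.987), *Ipo5* (0.981), *Skil* (0.981) and *Atic* (0.981). Those most like *Cgn* were *Kif21a* (0.989) and *Gm4737* (0.982), so *Kif21a*, which encodes a kinesin, headed both lists. *Prkci* was closest to *Zranb3* (0.972) and *Cep192* (0.968), *Tjp1* to *Zfp606* (0.920) and *Hdac8* (0.908), and *Crb3* to *H2-K1* (0.945) and *Ap1m2* (0.904). *Ezr* was closest to *Gnas* (0.924) and *Parp4* (0.923), *Pard3* to *Ski* (0.948) and *Gigyf2* (0.946), *Pard6b* to *Smarce1* (0.928) and *Nudt19* (0.906), and *Pard6g* to *Evc2* (0.870) and *Med8* (0.861).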

How the data were processed

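Libraries were made with a stranded mRNA kit and sequenced as paired reads. Per the submitters' processing notes, the authors used FastQC, Trimmomatic 0.33 for trimming and kallisto 0.43.1 for transcript estimates, and the notes name mm10 and GRCm38. The transcript set is not given in the sources used here. The deposited tables give, for 115270 transcripts, the estimated count (expected counts, not scaled for depth) and TPM, which the authors' tool scales for effective length and to a common total. Of these transcripts 113580 (98.5%) matched GENCODE M21 (GRCm38), and those unmatched, with 0.659% to 0.709% of counts, were left out. Estimated counts and TPM were summed per gene, and the count sums were rounded. Reads shared by paralogs are divided by the estimation, so values of close paralogs are uncertain.

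Counts were fitted with edgeR 4.0.16 (R 4.3.3): TMM, filterByExpr, robust quasi-likelihood, 1 mean per group over 12 libraries. Benjamini-Hochberg adjustment covered 17424 genes, with a threshold of 0.05. Common biological coefficient of variation was 0.311. Transcript usage was tested with diffSpliceDGE in edgeR. The scripts were tested on simulated data. Alternatives used DESeq2 1.42.0 and limma 3.58.1 on log2(TPM + 1) and log2(TPM + 0.1), among others. A floor of 3 counts was 0.0779 to 0.1035 CPM and covers counting error only. Replicates differed beyond sampling noise (chi-square per degree of freedom 11.16 to 32.66).

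Members, lists and tests were chosen with earlier results of these data known. Named genes were the 9 members, their paralogs (1 of them is not reported here), list genes called between genotypes or for an interaction, the 3 non-members per list with the largest WT change from 0 h to 48 h among those called in both genotypes, and the best correlated genes (5 for *Podxl*, 2 for each other member). Transcripts with at least 10% of the gene TPM in a group were described, and others named for their p were chosen after their values were seen. Promoters came from RefSeq (GRCm38.p6), and the motifs were chosen after the expression values were seen.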

Additional observations from a re-analysis of the deposited data

How the results depend on the processing

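Besides the fits without a library, 9 alternatives were run (8 for the average over all times), and single-library leave-outs keep the lone sample under the spread of the other groups. Of 1539 comparisons of single members with an alternative, 1450 kept their side of the threshold, 67 lost and 22 gained a call, and no called value reversed. Most of the 1539 had no call in the main fit to lose, so the 67 lost calls came from the smaller part that did. In 88 comparisons the sign changed with no call on either side. *Podxl*, *Cgn* and *Prkci* from 0 h to 48 h kept their calls in both genotypes throughout.

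From 0 h to 24 h in WT, 2 members were called, against 0 with length offsets, 0 with limma on log2(TPM + 1), 0 with limma on log2(TPM + 0.1) and 1 to 2 without a single library. From 24 h to 48 h in WT the count of 2 became 1 with length offsets, 0 with limma on log2(TPM + 1) and 0 on log2(TPM + 0.1). From 0 h to 48 h in WT the count of 5 became 3 with length offsets, 3 and 3 with limma at either pseudocount, and 3 to 4 without a library. For KO 0 h to 24 h the count of 3 became 1 with limma on log2(TPM + 1). For KO 24 h to 48 h the count of 2 became 1 and 1 with limma, and 2 to 4 without a library, the 4 being without KO 24 h replicate 1.

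For KO minus WT at 0 h, the count of 1 became 3 with DESeq2, 2 with DESeq2 size factors in edgeR, 2 with no filter, 2 with at least 10 counts in every library, 0 with length offsets, 0 and 0 with limma, 0 with only the groups compared and 0 to 2 without a library. For KO minus WT at 24 h, 1 became 0 with length offsets, 0 and 0 with limma, 0 with only the groups compared and 0 to 3 without a library, the 3 being without KO 24 h replicate 2. For KO minus WT at 48 h, 0 became 1 with DESeq2 and 1 with no filter. Over all times, 3 became 0 and 0 with limma at either pseudocount and 2 to 4 without a library. The causes were not tested.

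Among all genes, 220 were called for KO minus WT at 0 h, 375 with DESeq2, 386 with no filter, 60 with length offsets and 20 with limma on log2(TPM + 1), and 75 to 131 without a library. At 24 h 255 were called, 449 with DESeq2, 615 with no filter, 64 with length offsets, 20 with limma, 13 with only the groups compared and 62 to 2327 without a library, the 2327 being without KO 24 h replicate 2. At 48 h the counts were 117, 232, 303, 19 and 23 in the order of 0 h, and 52 to 58 without a library. Over all times 877 became 294 with length offsets and 189 with limma, and was 510 (without KO 0 h replicate 2) to 2506 (without KO 24 h replicate 2). The interaction counts of 2 at 24 h and 7 at 48 h became 15 and 72 with DESeq2 and 82 and 123 with no filter, and without a library ran from 1 to 1070 at 24 h, the 1070 again without KO 24 h replicate 2, and from 4 to 10 at 48 h. For the change of 0 h to 48 h, 4118 genes in WT and 4348 in CIDEA KO cells became 2499 and 2664 with length offsets and 2627 and 2619 with limma on log2(TPM + 1), and for 0 h to 24 h, 2615 and 3236 became 1319 and 1772, and 1362 and 1617. For 24 h to 48 h, 1418 and 1733 became 565 and 823, and 475 and 785.

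The replicate block, which adds the replicate number to the fit, changed 0 of 108 member calls (5 members from 0 h to 48 h in WT, 3 over all times). Correlations of same-numbered libraries over all tested genes were -0.0486 to 0.0508, so no shared effect of the replicate number was seen. Genes with few counts weigh as much as others in these values, which cannot tell whether same-numbered samples came from the same experiment. At 194 to 426 counts, *Crb3* had an SE of 0.28 on the log2 scale.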
